A study of Schizosaccharomyces pombe with 9 samples.

Results

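Fission yeast cells (*Schizosaccharomyces pombe*) growing with ample glucose keep many genes for starvation, iron uptake and sexual differentiation at low levels. The library labelled *tup11∆/tup12∆* was compared here with the wild-type library, both grown under glucose rich conditions, to ask which transcripts are higher or lower without Tup11 and Tup12 in cells that were not starved. All 5323 features of the deposited table entered the comparison, 5323 of 5323, with 1 library on each side out of 9 in the series. The series also held a strain that lacks *php5* in addition, and each strain was sampled after 2 h in a medium rich in glucose, in one poor in glucose or in one without nitrogen. Poly(A) RNA was sequenced without strand information.

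Both cultures were grown in yeast extract with 6% glucose, whereas glucose starvation meant yeast extract with 0.1% glucose and 3% glycerol, and nitrogen starvation a minimal medium without nitrogen and with 1% glucose. By the study's strain list, *tup11∆/tup12∆* strains carry both genes disrupted by the *ura4* marker in an *ura4-D18* background. Some of them also carry *ade6* and *leu1* alleles, and they are of either mating type. Listed strains with both genes intact also differ in mating type and in *leu1* or *ura4* alleles. Which strains were sequenced is not given in the sources used here, so that a difference of these alleles or of mating type and the loss of the corepressors cannot be told apart. With 1 library per strain there was no replicate check, no p-value can be given, and every value below describes these cultures. The libraries held 53733682 reads for *tup11∆/tup12∆* and 54303622 reads for wild-type.

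Tup11 and Tup12 are related proteins of the Tup1 and Groucho family. They do not bind DNA themselves. DNA-binding proteins bring them, with the partner Ssn6, to promoters, where they hold transcription down through histone deacetylases, nucleosome positioning and contact with the transcription machinery. In fission yeast they are known as corepressors of *fbp1*, a gluconeogenesis gene that glucose represses, and as partners of the iron-responsive repressor Fep1.

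The targeted genes were read first. *tup11*, on chromosome I, had 0.329 TPM in *tup11∆/tup12∆* cells and 41.9 TPM in wild-type cells, a TPM ratio of 0.00786 with a 95% counting interval of 0.00566 to 0.0106. TPM counts the reads of a feature per base of its length, scaled to a sum of 1000000 in each library. Intervals given here are exact Clopper-Pearson intervals from the reads behind each value and cover counting error only. *tup12* had 89.2 TPM in the library labelled *tup11∆/tup12∆* and 106.8 TPM in wild-type cells, from 10563 and 12144 reads. Transcripts from the *tup12* locus were therefore counted in a library whose label says that the gene is missing, so that the library is known by its label and by its *tup11* and *ura4* reads. *ura4*, which encodes orotidine 5′-phosphate decarboxylase, had 170 TPM in *tup11∆/tup12∆* cells against 0 reads in wild-type cells, which is at least 2994-fold higher when 3 reads are taken as the floor. Pyrimidine genes such as *urg2* were therefore compared between a library with *ura4* transcripts and a library without them. *ade6* had 85.5 and *leu1* 477 TPM in *tup11∆/tup12∆* cells, against 121 and 663 TPM in wild-type cells. *php5*, which the second mutant lacks, had 61.6 TPM in *tup11∆/tup12∆* cells and 61.6 TPM in wild-type cells.

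A feature was called higher or lower when TPM + 1 differed by more than 2-fold. By this rule 169 features, or 3.17% of 5323, were higher in *tup11∆/tup12∆* cells, and 73 features, or 1.37%, were lower. The remaining 95.5% lay within 2-fold, and the median log2 ratio of all features was −0.17. The higher side reached farther, with 72 features over 4-fold, 41 over 8-fold and 22 over 16-fold, while the lower side had 9 over 4-fold and 1 over 8-fold, which was *tup11* itself. Of the calls, 69.8% were on the higher side. When the libraries were scaled by median-of-ratios size factors, the median moved up by 0.17 on the log2 scale and the split became 205 higher and 51 lower, or 80.1% on the higher side. With a common upper quartile it was 202 and 51, or 79.8%.

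**Figure D1:**
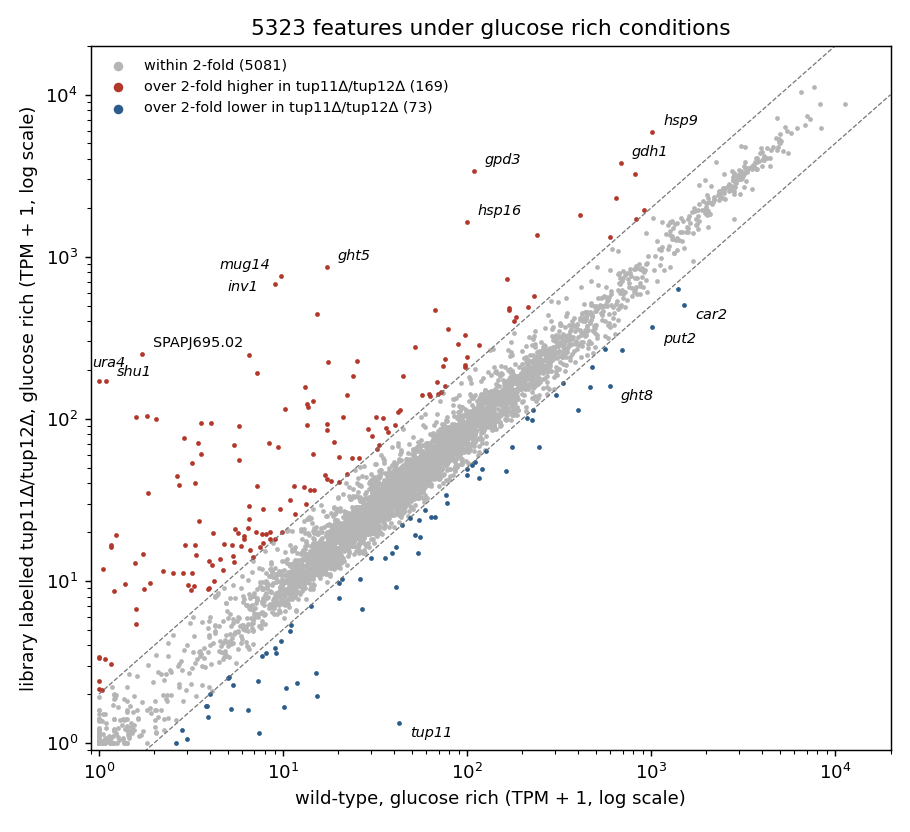
Each point is one of 5323 features, with TPM + 1 in wild-type cells on the horizontal axis and TPM + 1 in the library labelled *tup11∆/tup12∆* on the vertical axis, both on log scales and both under glucose rich conditions. Dashed lines mark 2-fold. The 169 higher features spread far above the band at low wild-type levels, while most of the 73 lower features lie near it and *tup11* is the farthest below, at 0.329 against 41.9 TPM.

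The higher features were mostly quiet in wild-type cells. Their median was 57.1 TPM in *tup11∆/tup12∆* cells and 8.03 TPM in wild-type cells, while over all features the medians were 38.1 and 42.3 TPM. Of the 169, 91 (53.8%) had under 10 TPM in wild-type cells, against 13.6% of all features, and 18 had at least 100 TPM there. Together they took 4.56% of all TPM in *tup11∆/tup12∆* cells and 1.03% in wild-type cells. The lower features had a median of 13.8 TPM in *tup11∆/tup12∆* cells and 40.4 TPM in wild-type cells. By type, 165 of the higher features were protein-coding, 3 were tRNA genes and 1 was a pseudogene. In both libraries 19 of the higher and 22 of the lower features stayed under 10 TPM, where some values rest on few reads and others do not. Among the higher ones, *mug116* had 64 reads in *tup11∆/tup12∆* cells and 2 in wild-type cells, while SPAC212.12 had 213 and 56. Of the 50-base words in the sequence of SPAC212.12, 100% also occur elsewhere in the ASM294v3 genome, so its counts are uncertain. In bulk RNA, a few cells with much of a transcript and many cells with a little of it cannot be told apart.

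Genes for the use of sugars other than plentiful glucose stood among the highest ratios. *inv1* (SPCC191.11, chromosome III, 1724306 to 1726051 in the deposited table) encodes the secreted invertase that splits sucrose. It had 678 TPM in *tup11∆/tup12∆* cells and 8.03 TPM in wild-type cells, 84.4-fold higher with an interval of 79.1 to 90.1. *agl1*, which encodes a maltose-splitting alpha-glucosidase, had 92.9 against 2.56 TPM, 36.3-fold higher. The interval of this ratio was 33.2 to 39.7. Of 6 measured genes for disaccharide use, these 2 were called and 0 were lower, beside 3.17% higher and 1.37% lower of all features. The other 4 had log2 ratios of 0.96 (*gto2*), 0.78 (*mal1*), 0.48 (*sut1*) and 0.06 (*gto1*), and the median of the list was 0.87. *gto2* passed 2-fold with size factors or a common upper quartile. Without the added 1, its TPM ratio was 2.05 with an interval of 1.94 to 2.16.

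Hexose transporters carry glucose and related sugars across the plasma membrane. Of the 8 measured *ght* genes, 5 were higher and 1 was lower, beside 3.17% and 1.37% of all features, with a median log2 ratio of 2.42 against −0.17 over all features. *ght5* (SPCC1235.14), the high-affinity glucose transporter, had 863 TPM in *tup11∆/tup12∆* cells and 16.4 TPM in wild-type cells, 52.7-fold higher (50.3 to 55.3). Of the 50-base words in its sequence 37.4% also occur elsewhere in the ASM294v3 genome, as do 38.2% of those of *ght8*, so their counts are uncertain where the authors' counting could split reads between copies. *ght3*, a gluconate transporter, had 39.3 against 2.33 TPM, and *ght4* had 59.4 against 13.5 TPM. *ght1* had 8.57 and *ght7* 13.6 TPM in *tup11∆/tup12∆* cells, against 0.387 and 0.735 TPM in wild-type cells. *ght8* went the other way, with 159 TPM in *tup11∆/tup12∆* cells and 596 TPM in wild-type cells, a ratio of 0.266 (0.262 to 0.271). *ght2*, at 157 against 172 TPM, and *ght6*, at 24.2 against 16.2 TPM, stayed within 2-fold. Summed over the 8 genes, transporter transcripts made up 1323 TPM in *tup11∆/tup12∆* cells and 818 TPM in wild-type cells, and *ght5* alone accounted for more than the rest of that sum in the mutant library.

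Glycerol genes showed the same mixture of large and small differences. *gld1*, for the glycerol dehydrogenase that starts glycerol breakdown, had 69.6 against 2.46 TPM and was 28.3-fold higher (24.7 to 32.5). *gut2*, for the mitochondrial glycerol-3-phosphate dehydrogenase, had 226 against 24.4 TPM. *gpd1*, whose product makes glycerol under osmotic stress, had 1707 against 825 TPM. These were the 3 of 8 measured members past 2-fold, beside 3.17% higher and 1.37% lower of all features. *dak1*, for dihydroxyacetone kinase, lay just under the threshold and passed it in each of the other scalings. *fbp1*, for fructose-1,6-bisphosphatase, had 6.68 TPM in *tup11∆/tup12∆* cells and 5.11 TPM in wild-type cells, 0.33 on the log2 scale, and was not called.

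**Figure D2:**
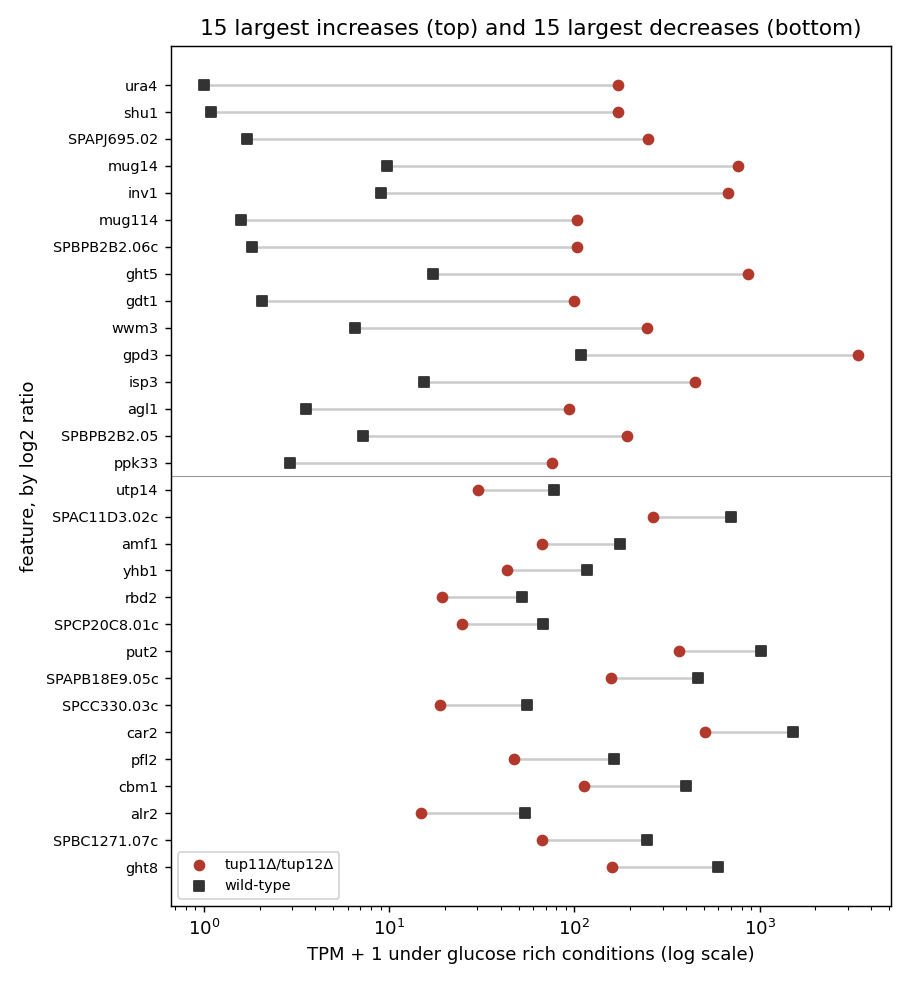
TPM + 1 on a log scale in *tup11∆/tup12∆* cells (red circles) and wild-type cells (black squares) in the glucose rich medium, for the 15 largest increases and the 15 largest decreases among features that reach 50 TPM in either library. Increases span log2 ratios of 4.71 for *ppk33* to 7.42 for *ura4*, and decreases run from −1.37 for *utp14* to −1.90 for *ght8*.

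Central glucose metabolism contained a single large difference. *gpd3*, one of the paralogs for glyceraldehyde 3-phosphate dehydrogenase, had 3388 TPM in *tup11∆/tup12∆* cells and 108 TPM in wild-type cells, 31.4-fold higher (30.7 to 32.1). Its paralog *tdh1* had 8816 against 11309 TPM. Of the 50-base words 24.4% in *gpd3* and 24.3% in *tdh1* recur elsewhere in the genome. Of 13 glycolysis genes *gpd3* was the only one past 2-fold (7.69%, beside 3.17% higher of all features). The median log2 ratio of the list was −0.25. *hxk2*, for hexokinase, had 1117 against 613 TPM. It stood at 0.86 on the log2 scale and crossed 2-fold with size factors or a common upper quartile. In the citric acid cycle 2 of 17 genes were higher (11.8%) and 0 were lower, beside 3.17% and 1.37% of all features. *cit1*, for citrate synthase, had 572 against 231 TPM, and *mdh1*, for malate dehydrogenase, had 484 against 168 TPM. In the respiratory chain and ATP synthase list 1 of 34 members was higher (2.94%, near the 3.17% of all features), and this was *gut2*. Histone genes (0 of 11) and purine synthesis genes (0 of 12) held no call, although the purine list had the median −0.55.

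Other genes of sugar use were found by their values and are named for that reason. The galactose genes lie side by side on chromosome II, and all 4 genes from *gal7* to *gal1* (4482569 to 4490050) were higher. *gal1*, for galactokinase, had 139 TPM in *tup11∆/tup12∆* cells and 21.2 TPM in wild-type cells. *gal7*, for the uridylyltransferase, had 156 against 12.1 TPM. *gal10*, for the epimerase, had 52.5 against 2.19 TPM. *tgd1* between them had 12.3 against 2.98 TPM. For gluconate, which enters the pentose phosphate pathway, *idn1* (gluconokinase) had 732 against 164 TPM and *gcd1* (annotated as a glucose-6-phosphate 1-dehydrogenase) had 68.2 against 4.42 TPM. *gti1*, a gluconate transport inducer, had 15.3 against 4.91 TPM, whereas *gnd1* was within 2-fold with a log2 ratio of −0.21.

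Levels without starvation can be set beside the levels of starved wild-type cells. *mug14* (SPBC359.06), which encodes an adducin-like protein, had with ample glucose 760 TPM in *tup11∆/tup12∆* cells and 8.70 TPM in wild-type cells, 87.4-fold higher (79.6 to 96.1). In wild-type cells under glucose starvation it had 5893 TPM, so the mutant reached 12.9% of that level. In the same way *inv1* reached 39.0%, *ght5* 24.5%, *agl1* 11.9%, *gld1* 10.7%, *ght4* 8.45%, *gcd1* 6.02%, *ght1* 3.30% and *ght3* 2.57% of the starved wild-type level. *gpd3* reached 84.0% and *gut2* 124%, so these glucose rich *tup11∆/tup12∆* cells were near or above the starved wild-type cells. *fbp1* reached 1.12%, with 6.68 TPM against 597 TPM in starved wild-type cells. Genes that wild-type cells raise on glucose starvation thus covered the range from almost no difference to the full starved level.

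**Figure D3:**
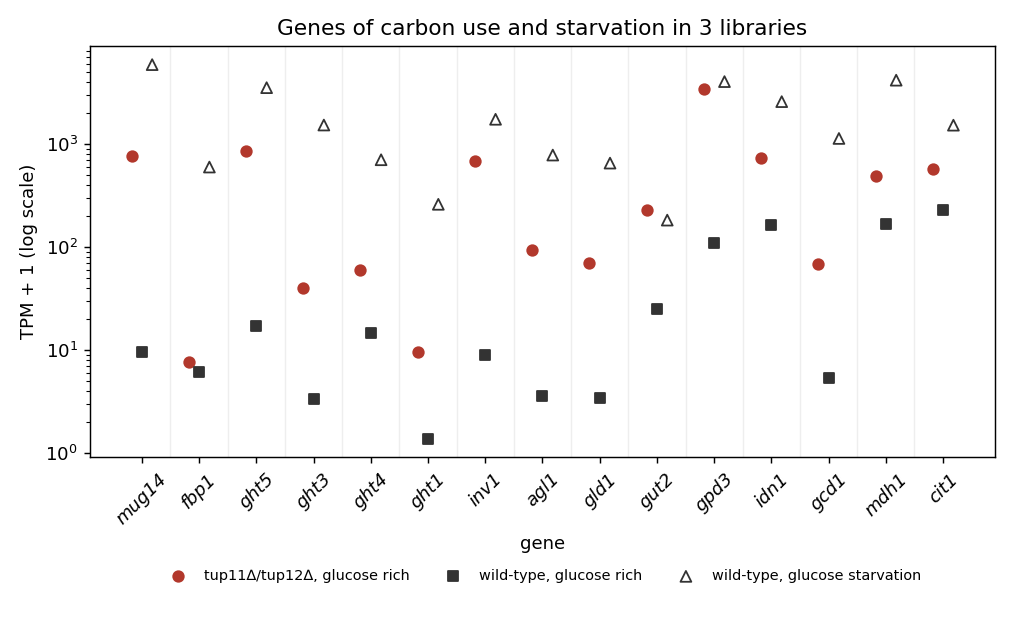
TPM + 1 on a log scale for 15 genes in the *tup11∆/tup12∆* library under glucose rich conditions (red circles), the wild-type library under glucose rich conditions (black squares) and the wild-type library under glucose starvation (open triangles), 1 library each. The red circles lie above the squares for all genes except *fbp1*, where they nearly coincide, and they reach the triangles only for *gpd3* and *gut2*.

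Iron uptake genes formed a second group. In fission yeast, iron enters by reduction and oxidation at the cell surface (the reductase Frp1, the oxidase Fio1 and the permease Fip1), as siderophores that the cell makes (Sib1 and Sib2) and takes up again (Str1, Str2 and Str3), or as heme (Shu1). When iron is plentiful, the GATA-type repressor Fep1 holds these genes down. Of 18 iron and copper genes 7 were higher (3.17% of all features) and 0 were lower (1.37% of all features), with a median log2 ratio of 0.52. *shu1* (SPAC1F8.02c, chromosome I, 85598 to 86278) had 170 TPM in *tup11∆/tup12∆* cells and 0.0885 TPM in wild-type cells. Only 4 reads stand behind the wild-type value, so the ratio of 1923 has an interval of 751 to 7059. *frp1* had 223 against 16.5 TPM, 13.5-fold higher (12.9 to 14.2). *fio1* had 118 against 12.8 TPM and its divergent neighbour *fip1* had 469 against 66.2 TPM. *str3* had 114 against 9.31 TPM, *sib2* had 183 against 23.0 TPM, and *str1* had 145 against 70.9 TPM. The other members were not called. *sib1* (0.91), *str2* (0.53), *pcl1* (0.50) and *sib3* (0.16) were within 2-fold on the log2 scale, *sib1* crossed it with size factors or a common upper quartile, and the copper transporter genes *ctr4* (146 against 130 TPM), *ctr5* (152 against 141 TPM) and *ctr6* (159 against 148 TPM) were close to equal. Without the added 1, the TPM ratio of *sib1* was 2.13 with an interval of 2.05 to 2.23. The regulators were not called. *fep1* had 24.5 against 32.1 TPM, and *php4*, for the iron-responsive partner of the CCAAT-binding complex, had 38.5 against 62.8 TPM.

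Fep1 is known to bind GATA motifs. The letters GATAA were searched on both strands from 250 bases before to 50 bases after each annotated transcript start in the ASM294v3 assembly of RefSeq, which is a later version of the build used for the table. At least 1 copy was found for 6 of the 7 higher iron genes and for 5 of the 11 others. At least 2 copies were found for 5 of the 7 and 1 of the 11, while 22.7% of all 5144 promoters held 2 or more. Over all higher features, 55.4% of promoters had the letters, against 59.4% of all promoters. The 250 bases before the start are printed for *frp1* (chrII:162393-162642, minus strand, 2 copies), *fio1* (chrI:4234822-4235071, plus strand, 3 copies, on the side that faces the divergent *fip1*) and *sib2* (chrI:870543-870792, plus strand, 2 copies) because each holds at least 2 copies. Capitals mark GATAA or its complement TTATC.
frp1: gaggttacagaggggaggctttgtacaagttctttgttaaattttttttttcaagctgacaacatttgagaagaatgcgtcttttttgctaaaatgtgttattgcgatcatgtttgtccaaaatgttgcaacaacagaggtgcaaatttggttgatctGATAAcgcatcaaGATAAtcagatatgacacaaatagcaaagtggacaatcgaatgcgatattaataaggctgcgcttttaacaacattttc
fio1: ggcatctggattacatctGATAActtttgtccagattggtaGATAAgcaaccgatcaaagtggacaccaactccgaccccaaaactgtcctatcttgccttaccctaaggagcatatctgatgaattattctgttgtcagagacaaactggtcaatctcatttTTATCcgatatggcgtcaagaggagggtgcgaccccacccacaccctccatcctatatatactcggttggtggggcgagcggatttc
sib2: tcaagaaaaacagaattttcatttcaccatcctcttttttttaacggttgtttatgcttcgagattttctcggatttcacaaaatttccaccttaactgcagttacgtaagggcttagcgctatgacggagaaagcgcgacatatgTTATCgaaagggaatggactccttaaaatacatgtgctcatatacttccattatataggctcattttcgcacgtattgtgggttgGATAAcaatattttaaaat

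Stress genes were split. Of 20 genes of the core environmental stress list 7 were higher and 0 were lower, while 3.17% of all features were higher and 1.37% lower. *hsp16*, for a small heat shock protein, had 1628 TPM in *tup11∆/tup12∆* cells and 98.5 TPM in wild-type cells, 16.5-fold higher (15.9 to 17.2). *hsp9* had 5884 against 1015 TPM, the largest gain in TPM among these genes. *cta3*, for a cation ATPase at the cell surface that salt induces, had 54.5 against 4.74 TPM, *zym1*, for the metallothionein that binds zinc, had 359 against 77.7 TPM, and *rds1* had 290 against 88.6 TPM. *pyp2*, for a phosphatase of the stress MAP kinase Sty1, had 12.1 against 4.45 TPM, and *gpd1* completes the 7. The catalase gene *ctt1* (117 against 93.1 TPM), the trehalose synthesis gene *tps1* (191 against 221 TPM) and *gpx1* (296 against 318 TPM) were within 2-fold. Chaperones mostly stayed so as well. Of 21 heat shock genes 3 were higher (*hsp16*, *hsp9* and *ssa1*, the last at 211 against 73.2 TPM), again beside 3.17% of all features, and the median log2 ratio was −0.27. *hsp104* had 28.8 against 46.3 TPM and *hsp90* had 1396 against 1695 TPM. Among 23 antioxidant genes 1 was higher (4.35%, near the 3.17% of all features), *gst1* with 16.1 against 6.79 TPM. None of the 5 trehalose genes was called.

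Genes of mating and entry into meiosis were higher in part. Fission yeast cells mate and sporulate when starved of nitrogen, under the transcription factor Ste11, and Mei2 is the RNA-binding protein that starts meiosis. Of 27 pheromone and mating genes 9 were higher and 0 were lower. Over all features these shares were 3.17% and 1.37%, which also stand behind the meiosis and *mug* counts that follow. *mei2* had 43.4 TPM in *tup11∆/tup12∆* cells and 1.64 TPM in wild-type cells, 26.4-fold higher (23.2 to 30.1). *rgs1*, for a regulator of pheromone signalling, had 89.2 against 4.77 TPM, 18.7-fold higher (17.0 to 20.6). *ste11* had 30.6 against 9.86 TPM. The signalling genes *gpa1* (85.7 against 27.8 TPM), *ste4* (57.1 against 19.1 TPM), *spk1* (81.9 against 36.4 TPM) and *byr1* (158 against 75.0 TPM) were higher by smaller factors. *map1* had 20.0 against 4.51 TPM and *map2*, for the P-factor pheromone, had 10.1 against 1.52 TPM. Mating type, which sets the use of *map1*, *map2* and the *mfm* genes, is not known for either library. The M-factor genes *mfm1*, *mfm2* and *mfm3* had 3.93, 8.90 and 23.7 TPM in *tup11∆/tup12∆* cells, against 5.84, 9.26 and 24.7 TPM in wild-type cells, and the receptor genes *mam2* (18.4 against 25.6 TPM) and *map3* (26.4 against 25.9 TPM) were within 2-fold. The meiosis genes *mei4*, at 1.82 against 1.84 TPM, and *mei3*, at 0.389 against 0.371 TPM, were low in both libraries. *rec12*, for the enzyme that makes meiotic DNA breaks, was called higher, at 13.1 against 5.91 TPM. In the list of meiosis and sporulation, which counts *mei2* again, 5 of 27 were higher and 1 was lower. The largest ratio there was that of *isp3*, for a spore wall protein, with 444 against 14.4 TPM (30.9-fold, 28.3 to 33.8). Among 91 genes of the *mug* series, named for a rise in meiosis, 11 were higher and 1 was lower. *mug114* had 102 against 0.595 TPM, a ratio of 172 with an interval of 109 to 290 from 18 wild-type reads.

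In a list of genes linked to nitrogen starvation, of 17 measured members 6 were higher and 0 were lower, beside 3.17% and 1.37% of all features, and the median log2 ratio was −0.22. Of these 6, *inv1* (invertase) and *fio1* (iron oxidase) do not act on nitrogen compounds, which leaves 4. *isp4*, for an oligopeptide transporter, had 65.8 against 8.45 TPM, *isp5*, for an amino acid permease, had 18.7 against 3.18 TPM, *per1* had 37.0 against 12.0 TPM and *isp6*, for a vacuolar protease, had 141 against 61.2 TPM. The ammonium transporter genes *amt1* (73.2 against 55.3 TPM) and *amt2* (51.7 against 91.3 TPM) stayed within 2-fold in opposite directions. *gdh1*, for the NADP-dependent glutamate dehydrogenase that assimilates ammonium, was named after its values were seen. It had 3783 TPM in *tup11∆/tup12∆* cells and 686 TPM in wild-type cells, 5.52-fold higher (5.47 to 5.56).

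**Figure D4:**
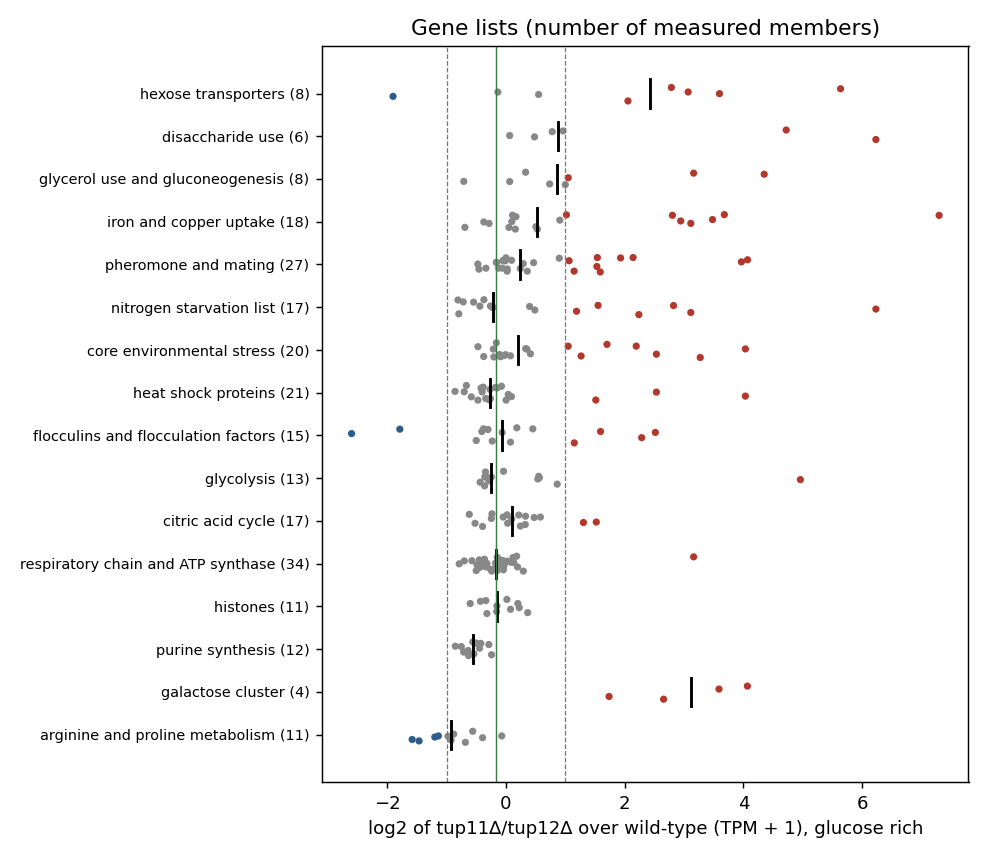
Log2 ratio of *tup11∆/tup12∆* over wild-type (TPM + 1, glucose rich) for each measured member of 16 gene lists. Points past 2-fold (dashed lines) are red when higher and blue when lower, black bars are list medians and the green line is the median of all features, −0.17. Hexose transporters (median 2.42) and the galactose cluster (3.12) lie to the right, while most lists have a median near the green line with a few members far from it.

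Cell surface genes differed in both directions. Of 15 flocculin and flocculation genes 4 were higher and 2 were lower. Over all features these shares were 3.17% and 1.37%, which also stand behind the other list counts in this paragraph. *gsf2*, for the flocculin that makes cells stick together and with 58.1% of its 50-base words repeated in the genome, had 15.7 TPM in *tup11∆/tup12∆* cells and 1.93 TPM in wild-type cells, and the surface glycoprotein genes *pfl8* and *pfl7* had 102 and 24.7 TPM in *tup11∆/tup12∆* cells, against 20.1 and 10.6 TPM in wild-type cells. *cbf12*, for a transcription factor of this group, had 12.6 against 3.52 TPM. *pfl2* had 46.4 against 163 TPM and *pfl9* had 0.664 against 9.09 TPM. In zinc homeostasis, besides *zym1*, the zinc uptake gene *zrt1* was lower, at 23.8 against 63.1 TPM. Of 7 phosphate genes *pho84* was higher, at 486 against 213 TPM, and none of 7 thiamine genes was called. Of 141 ribosomal protein genes 1 was higher (0.71%, below the share of all features), *rpl1603* with 399 against 179 TPM, and the median of that list was 0.04. In 25 *wtf* genes, which kill sister spores, no call was made, and the 13 Tf2 retrotransposons had 2 lower members, both under 5 TPM in each library. All of their 50-base words recur in the genome, and neither was called with size factors or a common upper quartile.

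The corepressor genes, their partners and a set of linked DNA-binding factors were mostly within 2-fold. Of 23 genes in this list, *tup11* was lower and *ste11* was higher, or 4.35% each, beside 1.37% and 3.17% of all features. *ssn6*, for the corepressor partner, had a log2 ratio of 0.15. *atf1*, for a stress activator of *fbp1*, had 43.9 against 57.1 TPM, and *rst2*, for its zinc-finger activator, had 51.7 against 40.2 TPM. The glucose repressor gene *scr1* had 20.1 against 13.8 TPM. *cam1* and *prp3*, used as loading or input controls, had 340 and 18.6 TPM in *tup11∆/tup12∆* cells, against 414 and 25.6 TPM in wild-type cells.

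Some of the largest increases carried no gene name or a little-known product. SPAPJ695.02, an uncharacterized protein, had 250 TPM in *tup11∆/tup12∆* cells and 0.707 TPM in wild-type cells, a ratio of 353 (192 to 738) from 10 wild-type reads. SPBPB2B2.06c, annotated as a phosphatase, had 103 against 0.817 TPM. *gdt1*, for a GDT1-like membrane protein, had 98.5 against 1.05 TPM, *wwm3* had 246 against 5.51 TPM, SPBPB2B2.05 had 190 against 6.27 TPM, and the kinase gene *ppk33* had 74.9 against 1.91 TPM. Each of these rested on 10 to 317 wild-type reads.

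Several of these genes lay next to each other. Of 166 higher features that are not tRNA genes, 59 (35.5%) had another higher feature as a direct neighbour, whereas 5.92% of all 5152 such features had a higher neighbour. There were 22 runs of adjacent higher features, 6 of them with 3 or more. The longest run held 8 features on chromosome I between 75698 and 101168. In chromosomal order these were SPAPJ695.02, SPAPJ695.01c, *ght3*, *shu1*, *str3*, *hhy1*, *isp3* and *pfl8*. The next gene, *pdc101* for pyruvate decarboxylase, had 2439 against 2804 TPM and was within 2-fold. The run thus joined a gluconate transporter, 2 iron genes, a spore wall gene and a surface glycoprotein. A second group lay on chromosome II, where 10 of the 17 SPBPB2B2 features (4458010 to 4504944) were higher and 0 were lower, whereas 3.17% of all features were higher and 1.37% lower. This block was named because of its runs of higher features, and it holds the galactose genes given above. Its share therefore describes the block and is no separate support. *pan5* between the 2 runs of the block had 81.4 against 71.1 TPM, and the 6 features beyond *gal1* had under 1 TPM in both libraries. Within 50000 bases of the ends of chromosomes I and II, 7 of 69 features were higher (10.1%) and 4 were lower. Within 100000 bases it was 27 of 135 (20.0%) and 10, beside the same 3.17% and 1.37% of all features. This wider window holds the SPBPB2B2 block and the chromosome I run except *pfl8*, so the same features are counted again here. Adjacent genes can share reads where their transcripts overlap, and 58.5% of all coding genes were overlapped over more than 50% of their coding sequence by another annotated gene or transcript in ASM294v3, against 55.4% of the higher ones. In the longest run, *hhy1* (100%), *pfl8* (97.6%) and *isp3* (95.8%) were overlapped over most of their coding sequence. The other members ranged from 0% for SPAPJ695.02 to 32.9% for *shu1*. Because the libraries carry no strand, reads of overlapping partners cannot be told apart.

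Motifs bound by regulators of *fbp1* were also searched in the promoter windows. The CRE core TGACGT, which Atf1 and Pcr1 bind, was found on either strand in 25 of 166 promoters of higher features (15.1%), in 6 of 71 of lower features (8.45%) and in 5.95% of all 5144. The stress response element, searched as CCCCTC or CCCCGC, was found in 23 of the higher (13.9%), 3 of the lower (4.23%) and 3.09% of all. Both were present together in 6 higher promoters (*vta1*, *idn1*, *cit1*, *gpa2*, *wwm3* and SPBPB7E8.02), in 0 lower ones and in 15 of all 5144. Shares of the other motifs follow. CCAAT, the letters of the complex that holds Php5, was found in 49.4% of the higher and 42.2% of all promoters, the heat shock letters GAANNTTC in 12.0% and 11.2%, the forkhead letters GTAAACA in 13.9% and 16.5%, and TATAAA in 45.8% and 48.2%. TTCTTTGTT, the box that Ste11 binds, was found in 9 higher promoters (5.42%) and in 1.98% of all. ACGCGT was found in 1.81% of the higher and 3.23% of all, and CAGTCACA in 1.20% and 2.66%. Such matches are letters in a window and say nothing of binding. The 250 bases before the start of *wwm3* (chrII:202031-202280, plus strand) and *idn1* (chrI:2276620-2276869, plus strand), which hold both motifs, and of *isp3* (chrI:95540-95789, plus strand), which holds the CRE core alone, are printed with these motifs or their complements in capitals.
wwm3: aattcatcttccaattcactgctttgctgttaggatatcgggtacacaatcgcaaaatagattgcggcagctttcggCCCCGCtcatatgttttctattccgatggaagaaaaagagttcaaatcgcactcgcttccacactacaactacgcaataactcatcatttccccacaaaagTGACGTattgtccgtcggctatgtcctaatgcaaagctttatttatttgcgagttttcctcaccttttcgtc
idn1: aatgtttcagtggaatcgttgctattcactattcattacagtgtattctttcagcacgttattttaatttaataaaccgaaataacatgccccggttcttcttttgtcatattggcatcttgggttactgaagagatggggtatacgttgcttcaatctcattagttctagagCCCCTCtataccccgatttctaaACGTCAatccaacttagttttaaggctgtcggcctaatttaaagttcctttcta
isp3: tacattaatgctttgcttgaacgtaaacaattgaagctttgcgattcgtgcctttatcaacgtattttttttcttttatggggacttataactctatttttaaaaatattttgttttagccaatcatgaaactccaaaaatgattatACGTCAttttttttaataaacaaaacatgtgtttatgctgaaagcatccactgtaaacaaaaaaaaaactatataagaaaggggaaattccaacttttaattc

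Past 2-fold, fewer features were lower than higher, although at 1.5-fold the order turned, with 285 higher and 419 lower. That count used the deposited TPM, in which the median log2 ratio of all features was −0.17, and was not repeated in another scaling. Among features that reach 50 TPM and besides *ght8*, the largest decreases were SPBC1271.07c, an N-acetyltransferase, with 65.8 TPM in *tup11∆/tup12∆* cells and 244 TPM in wild-type cells, *alr2*, an alanine racemase gene, with 13.8 against 53.4 TPM, *cbm1* with 112 against 402 TPM, and *pfl2*. SPAC11D3.02c, an acetyltransferase, had 266 against 697 TPM. *yhb1*, for the nitric oxide dioxygenase, had 42.2 against 116 TPM, *amf1*, for a transporter, had 66.2 against 176 TPM, and *utp14*, for a factor of ribosome assembly, had 29.0 against 76.7 TPM. *rbd2*, for a rhomboid protease, had 18.2 against 51.1 TPM, SPCC330.03c, a reductase, had 17.7 against 54.3 TPM, SPAPB18E9.05c had 157 against 463 TPM, and SPCP20C8.01c had 23.7 against 66.4 TPM. For SPCP20C8.01c, 91.8% of the 50-base words occur elsewhere in the genome. *urg2*, for a putative uracil phosphoribosyltransferase, had 8.10 against 39.9 TPM, which is below the level needed for this ranking. *ilv1*, for the first common enzyme of branched amino acid synthesis, had 112 against 227 TPM. It was called, but lay within 2-fold in each of the other scalings.

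A list of genes for the synthesis or breakdown of arginine and proline was put together after the values were seen. *car2*, for ornithine transaminase, had 505 TPM in *tup11∆/tup12∆* cells and 1511 TPM in wild-type cells, a ratio of 0.334 (0.331 to 0.338). *put2*, for a dehydrogenase of proline breakdown, had 367 against 1014 TPM, 0.362 (0.358 to 0.366). *aru1*, for arginase, had 634 against 1397 TPM, and *arg4*, for a carbamoyl-phosphate synthase of arginine synthesis, had 97.3 against 225 TPM. Of 11 genes in this list 4 were lower, beside 1.37% of all features, and 0 were higher, and the median log2 ratio was −0.92. With size factors or a common upper quartile 3 were lower and the median was −0.74 or −0.77. *arg5* was the first of the features with at least 10 TPM outside the threshold, at −0.98. *put1*, for proline oxidase, had 147 against 154 TPM.

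The same pair of strains was also compared under starvation, in 4 libraries that this comparison did not use. Of the 169 higher features, 85 (50.3%) were over 2-fold higher in *tup11∆/tup12∆* cells under glucose starvation, against 4.17% of all features, and 6 were over 2-fold lower. Under nitrogen starvation 123 (72.8%) were higher, against 4.96% of all features, and 4 were lower. In both starvations together 68 (40.2%) were higher, against 2.20% of all features, and 29 were higher in neither. The median log2 ratio of the 169 was 1.01 under glucose starvation and 1.69 under nitrogen starvation, beside −0.29 and 0.01 for all features. Of the 73 lower features, 47 (64.4%) were lower under glucose starvation, against 5.28% of all features, and 34 (46.6%) were lower under nitrogen starvation, against 4.02%. In both together 26 (35.6%) were lower, against 1.28% of all features. In the opposite direction, 2 of the 73 were over 2-fold higher in the glucose starvation medium and 3 in the nitrogen starvation medium.

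The 7 iron genes were all over 2-fold higher under glucose starvation too, and under nitrogen starvation all except *str1*, whose log2 ratio was 0.88 there. Their sizes were not the same, since *str3* stood at 3.48 with ample glucose and at 3.24 and 1.86 in the glucose and nitrogen starvation media. *shu1* had 249 TPM in *tup11∆/tup12∆* cells and 0.542 TPM in wild-type cells under glucose starvation, and 750 against 7.18 TPM under nitrogen starvation. *frp1* had 102 against 6.81 TPM under glucose starvation and 192 against 29.1 TPM under nitrogen starvation. *inv1*, *agl1*, *mug14* and *fbp1* had other values by medium. *inv1* had 1642 TPM in *tup11∆/tup12∆* cells and 1738 TPM in wild-type cells under glucose starvation, a log2 ratio of −0.08, but 2712 against 24.6 TPM under nitrogen starvation. *agl1* had 726 against 781 TPM under glucose starvation and 1676 against 15.4 TPM under nitrogen starvation. *mug14* stood at a log2 ratio of 6.29 with ample glucose, and at 0.35 and 4.48 in the glucose and nitrogen starvation media. *fbp1*, not called under glucose rich conditions, had 2598 against 597 TPM under glucose starvation and 1612 against 21.0 TPM under nitrogen starvation. For *inv1*, *agl1* and *mug14* both strains were thus high under glucose starvation. Of the 4 galactose genes 3 were over 2-fold higher in *tup11∆/tup12∆* cells after glucose starvation and 4 after nitrogen starvation.

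**Figure D5:**
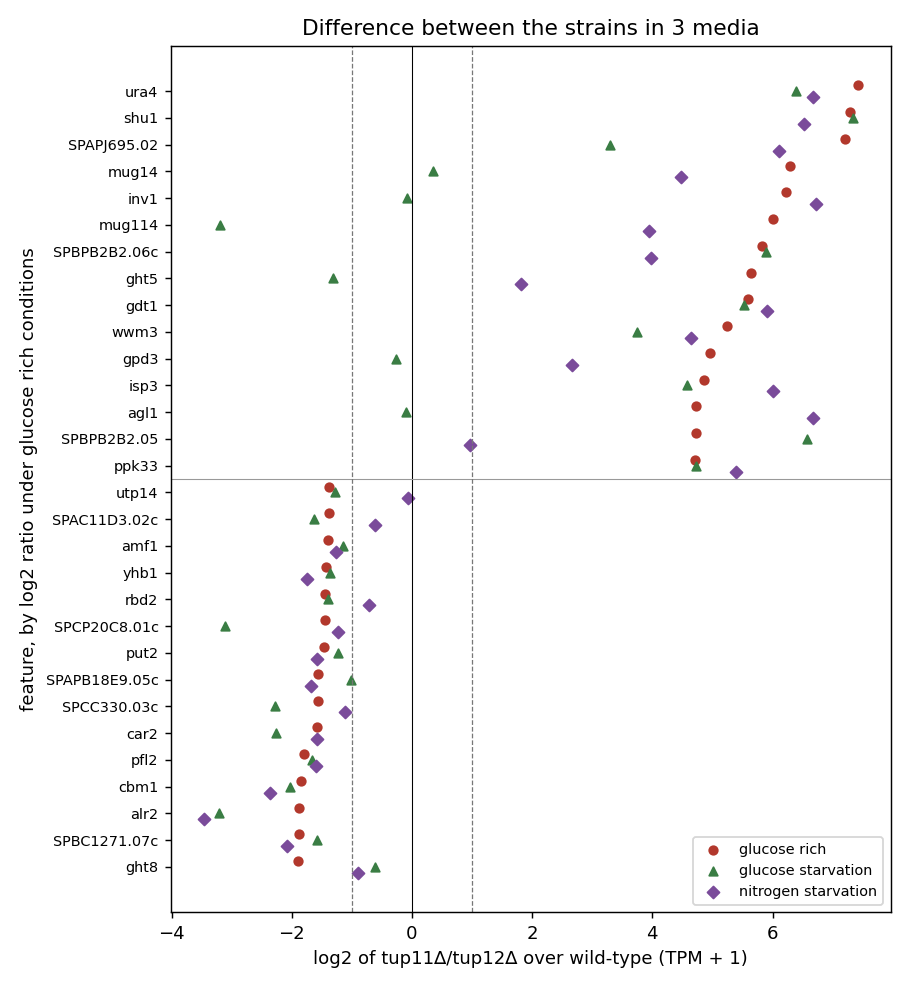
Log2 ratio of *tup11∆/tup12∆* over wild-type (TPM + 1) with ample glucose (circles), glucose starvation (triangles) and nitrogen starvation (diamonds) for the 15 largest increases (above the line) and 15 largest decreases (below it) of the glucose rich comparison. Of the increases, 9 were past 2-fold in the same direction under glucose starvation and 14 under nitrogen starvation. *mug114* and *ght5* lay past 2-fold on the other side under glucose starvation.

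The *tup11∆/tup12∆/php5∆* library under glucose rich conditions gives a further set of levels, which are listed without a comparison because it would use the same wild-type or *tup11∆/tup12∆* library again. Php5 is a subunit of the CCAAT-binding complex. *mug14* had 84.0 TPM in *tup11∆/tup12∆/php5∆* cells, 760 TPM in *tup11∆/tup12∆* cells and 8.70 TPM in wild-type cells. *isp3* had 48.8, 444 and 14.4 TPM in the same order. *inv1* had 426, 678 and 8.03 TPM, and *ght5* had 299, 863 and 16.4 TPM. On the other side of the *tup11∆/tup12∆* level, *gpd3* had 11053, 3388 and 108 TPM, *hsp16* had 7540, 1628 and 98.5 TPM, *agl1* had 451, 92.9 and 2.56 TPM, and *shu1* had 813, 170 and 0.0885 TPM.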

How the data were processed

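Poly(A) RNA of 9 *S. pombe* cultures was sequenced without strand information, and the libraries labelled *tup11∆/tup12∆* and wild-type under glucose rich conditions were compared. The authors mapped the reads to ASM294v2.30 with HISAT2, counted them with featureCounts and deposited TPM. The submitters' notes also name fastp and SAMtools, whose versions are not given in the sources used here. Feature lengths in bases, the other numeric column used, were taken as deposited. Per-sample columns not used numbered 0.

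Reads were recovered from TPM and length as whole multiples of the smallest step of each library. Within 0.01 of a whole number, 100% of values came out whole. No model was fitted to them, because a group of 1 library leaves no spread to test. Log2 ratios used a pseudocount of 1, which understates the change of low genes, and a call needed more than 2-fold. Ratios of TPM have exact 95% intervals. Amplified reads are not independent molecules, so these cover counting error only. Gene symbols and types came from RefSeq for 5316 of 5323 IDs.

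Named were the targeted and marker genes, the 15 largest increases and decreases among features that reach 50 TPM in either library, members of gene lists, and genes the study names. Members and lists were chosen with earlier results of these data known. The lists for galactose, gluconate, and arginine and proline, the SPBPB2B2 block, and *gdh1*, *pan5* and *pdc101*, were added after the values were seen. Promoters and overlaps were read in ASM294v3. Alternatives were pseudocounts of 0.1 and 10, folds of 1.5 and 3, a minimum of 10 TPM, 3 other scalings, and protein-coding genes only, which was added later. The calculations were tested on simulated data. Calculations ran in Python 3.11.15 with pandas 2.3.3, numpy 2.4.6 and scipy 1.17.1, and plots in matplotlib 3.10.9.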

Additional observations from a re-analysis of the deposited data

Results flagged for a closer look

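Of the 169 higher features, 6 were over 2-fold lower under glucose starvation and 4 under nitrogen starvation, and of the 73 lower features 2 and 3 were over 2-fold higher in these media. The 7 of them that are ranked or in a gene list are given with values, as is SPBPB7E8.02, at −1.12 under glucose starvation. None of these turns was tested, since each rests on 1 library per strain and medium. Under glucose starvation the log2 ratio of *tup11∆/tup12∆* over wild-type was −3.19 for *mug114*, −2.69 for *gcd1*, −2.44 for *isp5*, −1.39 for *ght4* and −1.31 for *ght5*, all of which were higher in *tup11∆/tup12∆* cells under glucose rich conditions. *ght5* had 1418 TPM in *tup11∆/tup12∆* cells and 3522 TPM in wild-type cells there, and *gcd1* had 174 against 1132 TPM. SPAC186.02c, at 0.0580 against 2.01 TPM under glucose rich conditions, stood at 2.65 under glucose starvation. *mug115*, at 3.87 against 9.97 TPM under glucose rich conditions, stood at 1.004 under nitrogen starvation.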

How the results depend on the processing

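Each group had 1 library. No paired analysis was possible because replicate numbers with only 1 library per group pair nothing, and no library could be left out. The 169 higher and 73 lower features became 105 and 31 with a pseudocount of 10, 227 and 115 with a pseudocount of 0.1, 285 and 419 at 1.5-fold, 99 and 17 at 3-fold, and 236 and 129 with a TPM ratio over 2 and no pseudocount. Features with a 95% interval wholly beyond 2-fold numbered 163 and 78, and protein-coding genes 165 and 69. With size factors all 169 higher features remained called and 51 of the 73 lower ones did. The share of higher features that were also higher under nitrogen starvation was 61.0% with size factors instead of 72.8%. The shares of lower features that were also lower became 51.0% under glucose starvation and 58.8% under nitrogen starvation with size factors, and 64.7% under nitrogen starvation at 3-fold. For the 30 ranked features, 180 of 180 values under 6 alternatives kept their sign and stayed past 2-fold. These features were picked for their size in the same libraries, so this result was largely set in advance. The minimum of 10 TPM could not change any of them, since each reaches 50 TPM. Of 204 list medians, 179 kept their sign, and the size factors and the upper quartile shifted the median of all features up by 0.17 and 0.15, so that a median near 0 gives no direction. The depth limits ratios where the wild-type level is a few reads, as for *shu1*.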
